A study of Danio rerio with 697 samples.

Results

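The genes of 8 enzymes that remove reactive oxygen species or their products are described here in single beta cells of zebrafish larvae. They are sod1, sod2, cat, gpx1a, prdx1, prdx2, hmox1a and gstp1, 8 of the 32520 genes of the count table, and they were taken by name. The study asked what becomes of beta cells when calcium entry is forced upon them. Larvae carried the rat cation channel TRPV1 under the insulin promoter, Tg(ins:TRPV), and its ligand capsaicin (csn) was added to the water. Cells from pooled islets of 20 larvae per group were sorted for green fluorescence and for calcein, which marks living cells, and were sequenced by Smart-seq2, a full-length method, with 1 cell per well.

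The CSN24 group was Tg(ins:TRPV); Tg(ins:Kaede) larvae kept in csn for 24 h. The sources used here start this treatment at 3 or at 4 dpf (days post fertilization), so the CSN24 larvae may have been younger than the others. The CSN48-1 and CSN48-2 sets were the same double transgenic larvae kept in csn for 48 h, between 3 and 5 dpf, and the labels do not say how these sets differ. The Ctrl group was Tg(ins:Kaede) larvae without the channel, also kept in csn for 48 h between 3 and 5 dpf. All groups were thus treated with csn and all carried the ins:Kaede reporter, and the insulin promoter that drives both transgenes is active in beta cells. Each group was 1 pool of larvae on 1 plate, with both 48-h sets on the same plate, so treatment, plate and pool cannot be told apart between the groups and no test between them was possible. Wells are cells of 1 pool, not replicates, and the gap between CSN48-1 and CSN48-2 is the only measure of how far a pair of samples under 1 treatment lay from each other.

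Of the wells, 650 had at least 200 detected genes and at most 40% of counts on mitochondrial protein-coding genes. Wells with over 1000 counts of the insulin gene ins are called ins-high, and the rest ins-low. Ins-high wells numbered 540 in all and ins-low wells 110. The ins-low wells were 14 in CSN24, 56 in CSN48-1, 34 in CSN48-2 and 6 in Ctrl, and ins-high wells made up the other 90.7%, 55.6%, 83.3% and 96.5% of the wells of these groups, which was 70 wells in CSN48-1, the smallest set. The number of ins-high wells of each group stands in the legend of the plot of strong wells. Ins-high wells held a median of 524765 counts in CSN24, 414542 in CSN48-1, 452950 in CSN48-2 and 659446 in Ctrl, so Ctrl wells were the deepest. Beta-cell markers other than ins summed to 7296, 7165, 6579 and 5958 CPM (counts per 1000000 counts on genes) over the ins-high wells of CSN24, CSN48-1, CSN48-2 and Ctrl. Over 1000 reads of the delta-cell hormone sst2, the alpha-cell hormone gcga or the acinar protease prss59.1, or 10 reads of 3 or more iridophore genes, were present in 31 (22.8%) of the CSN24 ins-high wells, in 16 (22.9%) of CSN48-1, in 62 (36.7%) of CSN48-2 and in 24 (14.5%) of Ctrl. Whether such wells held 2 cells, RNA of other wells or cells with several hormones was not tested, and no doublet caller was run. Values without them are given for 6 of the 8 genes.

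Superoxide, a by-product of mitochondrial respiration, is turned into hydrogen peroxide by the superoxide dismutases, and the peroxide is then removed by catalase, glutathione peroxidases and peroxiredoxins. Haem oxygenase and glutathione S-transferases act on the wider damage, by breaking down haem and by joining glutathione to reactive compounds. Mammalian beta cells are known for low levels of catalase and glutathione peroxidase compared with other tissues.

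All 8 genes were identified in the table (zebrafish genome GRCz11). sod1 (ENSDARG00000043848) lies on chromosome 10 at 25694395 to 25699454, sod2 (ENSDARG00000042644) on chromosome 20 at 30937934 to 30947547, and cat (ENSDARG00000104702) on chromosome 25 at 7492663 to 7504554. gpx1a (ENSDARG00000018146) spans 36048579 to 36156971 on chromosome 11, prdx1 (ENSDARG00000058734) 6104378 to 6115688 on chromosome 2, and prdx2 (ENSDARG00000025350) 51721851 to 51729862 on chromosome 1. hmox1a (ENSDARG00000027529) is on chromosome 3 at 26011482 to 26017831 and gstp1 (ENSDARG00000104068) on chromosome 14 at 3507326 to 3514055. The name table calls the prdx2 row PRDX1, the hmox1a row HMOX1 and the gstp1 row gstp1.2, and these were settled by the RefSeq name and chromosome, with 20 of 20, 19 of 20 and 14 of 16 named neighbours shared. The spans of sod1, sod2 and cat each overlap 1 other gene and that of gpx1a overlaps 2, brk1 and tex264b. gstp1 has a near-identical tandem copy, gstp1.1, so its counts are uncertain where reads could be assigned to either.

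Reads of these genes were spread very unevenly over the wells. Among the 4320 values of 8 genes in 540 ins-high wells, 3171 were 0, 907 were 1 to 9 reads and 31 were 10 to 99, and the remainder were 100 or more. The wells with 100 or more reads held 99.1% of all reads of the 8 genes. A well with at least 10 reads of a gene is called strong for it below, and 853 of the 907 lower values were 1 to 3 reads. A well was therefore mostly either strong for a gene or nearly without its reads, and a pooled level combines how many wells were strong with how many reads each held. Whether a cell in a well with few or no reads lacked the transcript was not tested.

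The low values followed the layout of the plates. On the third plate a single ins-low well held 3009 reads of hmox1a. Among the other wells of its row or column 15 of 37 (40.5%) had 1 to 9 reads of hmox1a, against 1 of 328 (0.305%) elsewhere on that plate. Wells with 1 to 9 reads of sod2 made up 39.4% of those that shared a row or column with a well of at least 1000 sod2 reads on that plate and 9.13% of the others. In 16 of 18 combinations of gene and plate with at least 20 wells on each side the share was higher in shared rows and columns, with sod1 on the first plate (16.46% against 17.05%) and gpx1a on the third (5.56% against 11.01%) as the exceptions. The cause was not tested. The comparisons below use pooled CPM, with exact Poisson 95% intervals, and shares of strong wells, with Clopper-Pearson 95% intervals. The Poisson intervals take reads as independent, which reads of 1 cell without molecular identifiers are not, and leave out the spread between wells. For sod1 in CSN24, for example, the CPM of single ins-high wells had a mean of 133.4 and a standard deviation of 706. The Clopper-Pearson intervals cover the sampling of wells within 1 pool only.

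**Figure D1:**
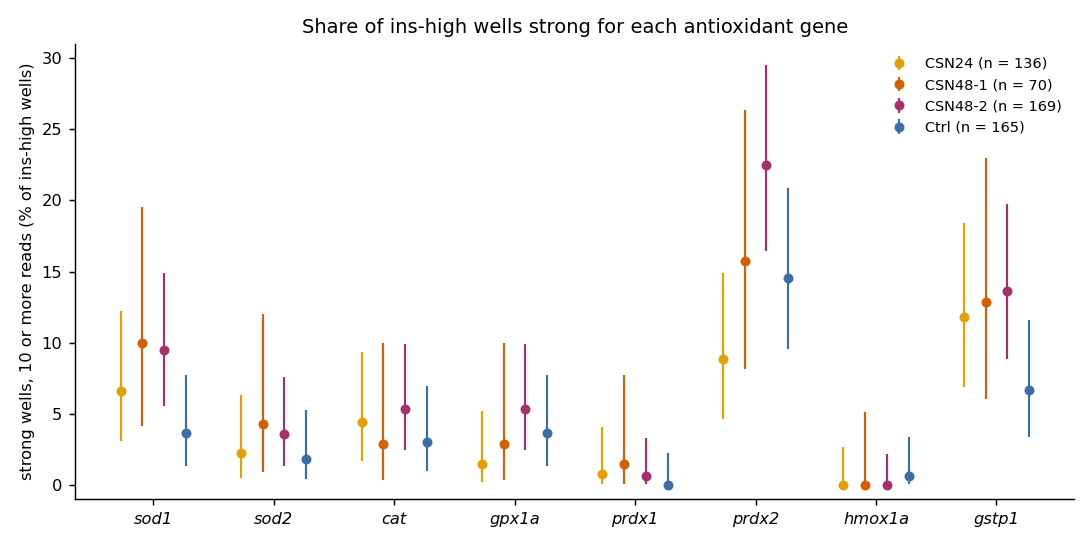
The y axis gives the share of ins-high wells with 10 or more reads of each gene on the x axis, with bars for the Clopper-Pearson 95% interval; the legend gives the number of wells of CSN24, CSN48-1, CSN48-2 and Ctrl. sod1 and gstp1 sit above Ctrl in the 3 groups with the channel, with overlapping intervals, prdx2 is lowest in CSN24 at 8.82% and highest in CSN48-2 at 22.5%, and prdx1 and hmox1a are near 0 in each group.

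sod1 and gstp1 were higher than in Ctrl in all 3 groups with the channel, by pooled CPM and by the share of strong wells. sod1 encodes the cytosolic copper-zinc superoxide dismutase. It stood at 151.4 CPM in CSN24, 119.8 CPM in CSN48-1 and 186.2 CPM in CSN48-2, against 48.6 CPM in Ctrl. The log2 ratio to Ctrl was 1.64 (1.59 to 1.69) in CSN24, 1.30 (1.24 to 1.36) in CSN48-1 and 1.94 (1.89 to 1.98) in CSN48-2. Without the well that held most sod1 reads in each group it was 2.09, 1.42 and 2.54 in these groups. Leaving out that well on the side of the channel group alone, with all Ctrl wells kept, gave 1.17, 0.50 and 1.63, so in CSN48-1 the difference then fell short of 1.5-fold. This one-sided omission lowers ratios in general, and in CSN48-1 it moved the median log2 ratio of all compared genes from 0.25 to -0.51.

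Strong wells for sod1 numbered 9 in CSN24 (6.62%, 3.07 to 12.2), 7 of 70 in CSN48-1 (10%, 4.12 to 19.5) and 16 in CSN48-2 (9.47%, 5.51 to 14.9), against 6 in Ctrl (3.64%, 1.35 to 7.75). The intervals of each group overlapped that of Ctrl. Their reads ranged over 28 to 3077 with a median of 895 in CSN24, 10 to 1625 with a median of 80 in CSN48-1 and 16 to 3048 with a median of 609 in CSN48-2, against 13 to 2460 with a median of 558.5 in Ctrl. The ranges of the strong wells overlapped between all groups. In CSN24, 6 of the 9 strong wells were among the 31 with genes of other cell types. Without those wells 3 wells (2.86%) were strong in CSN24, 6 of 54 (11.1%) in CSN48-1 and 11 (10.3%) in CSN48-2, against 6 (4.26%) in Ctrl, so the share in CSN24 was then below that of Ctrl while its pooled level stayed at 151.1 CPM, against 56.5 CPM in Ctrl. With only wells of at least 1000 detected genes the sod1 log2 ratio of CSN24 to Ctrl was 0.11, and with counts per spike-in that of CSN48-1 was 0.03.

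gstp1, a pi-class glutathione S-transferase, reached 418 CPM in CSN24, 376 CPM in CSN48-1 and 343 CPM in CSN48-2, against 105.8 CPM in Ctrl. The log2 ratios to Ctrl were 1.98 (1.95 to 2.01), 1.83 (1.79 to 1.87) and 1.70 (1.67 to 1.73) in that order of groups, and 2.17, 1.80 and 1.89 without the top well of each group. With all Ctrl wells kept and the top well of the channel group left out they were 1.69, 1.32 and 1.41. Strong wells made up 16 (11.8%, 6.88 to 18.4) in CSN24, 9 of 70 (12.9%, 6.05 to 23.0) in CSN48-1 and 23 (13.6%, 8.83 to 19.7) in CSN48-2, against 11 (6.67%, 3.37 to 11.6) in Ctrl. Here too the intervals overlapped, while the shares of the 3 groups with the channel ranged from 11.8% to 13.6%. The median strong well held 1407 gstp1 reads in CSN24, 964 in CSN48-1 and 761 in CSN48-2, against 628 in Ctrl. Without the wells with genes of other cell types the strong share was 10.48%, 12.96% and 13.08% in the groups with the channel, against 6.38% in Ctrl. With counts per spike-in the log2 ratio of CSN48-1 was 0.56, short of 1.5-fold.

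**Figure D2:**
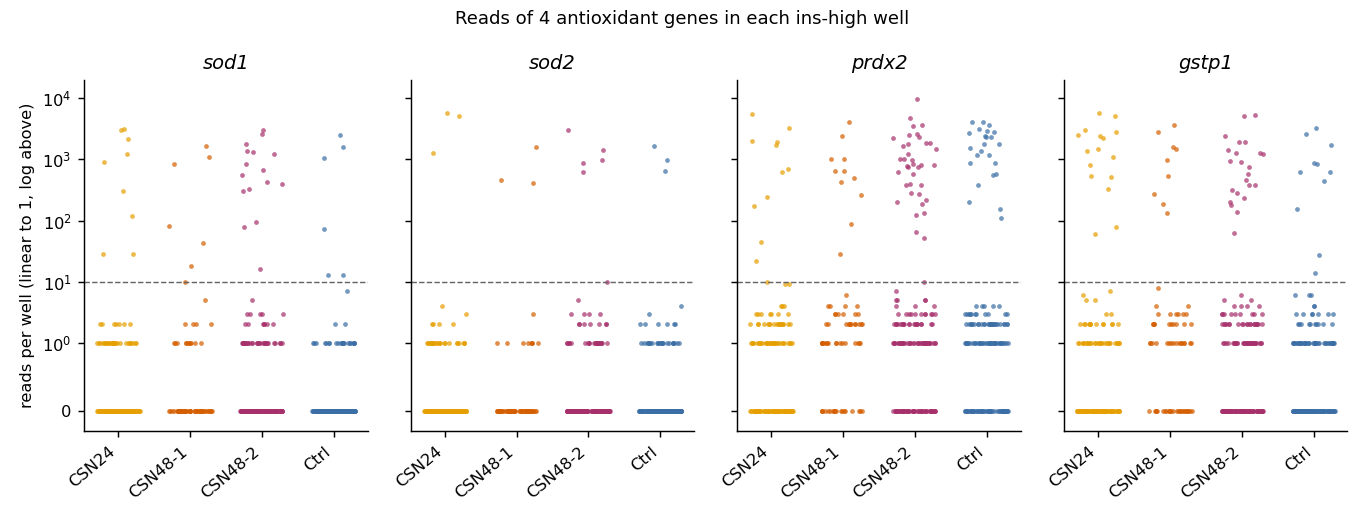
Each point is 1 ins-high well, with its reads of sod1, sod2, prdx2 or gstp1 on a y axis that is linear up to 1 and logarithmic above, by group, and the dashed line marks 10 reads. Most wells lie at 0 to 3 reads and the strong wells form a separate cloud that reaches 9538 reads for prdx2 in CSN48-2.

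prdx2, a cytosolic peroxiredoxin that reduces peroxides and is recycled by thioredoxin, did not move one way. It was lower than Ctrl in CSN24, close to Ctrl in CSN48-1 and higher in CSN48-2, at 228, 356 and 652 CPM, against 404 CPM in Ctrl. The log2 ratios were -0.82 (-0.85 to -0.80), -0.18 (-0.21 to -0.15) and 0.69 (0.67 to 0.71), and -1.26, -0.67 and 0.56 without the top well of each group. Strong wells made up 12 (8.82%, 4.64 to 14.9) in CSN24, 11 of 70 (15.7%, 8.11 to 26.4) in CSN48-1 and 38 (22.5%, 16.4 to 29.5) in CSN48-2, against 24 (14.5%, 9.55 to 20.9) in Ctrl. The span between CSN48-1 and CSN48-2, 2 sets of 1 treatment, was wider than that between CSN48-2 and Ctrl on the log2 scale of pooled CPM, and prdx2 in CSN48-2 stayed past 1.5-fold in 10 of 15 alternatives, with 0.15 as the lowest log2 ratio (counts per spike-in). Without the wells with genes of other cell types the level was 128.3, 380 and 597 CPM in CSN24, CSN48-1 and CSN48-2, against 448 CPM in Ctrl. The log2 ratios were then -1.80, -0.24 and 0.42, and the difference of CSN48-2 fell short of 1.5-fold. prdx2 was the most often strong of the 8 genes, in 85 of 540 ins-high wells (15.7%).

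sod2, the manganese superoxide dismutase of mitochondria, had too few wells with a read to enter the comparison, which required 1 count in 25% of the wells of either group. Its pooled level was 169.4 CPM in CSN24, 79.3 CPM in CSN48-1 and 85.9 CPM in CSN48-2, against 31.03 CPM in Ctrl, and rested on 3, 3, 6 and 3 strong wells in these groups. The 3 strong wells of CSN24 held 1258, 5168 and 5674 reads and those of CSN48-1 held 418, 460 and 1583, against 651, 959 and 1666 in Ctrl. The higher level of CSN24 thus came from reads per strong well, at the same number of strong wells. The log2 ratio to Ctrl was 2.45, 1.35 and 1.47, and 2.55, 0.89 and 1.65 without the top wells. Without the wells with genes of other cell types it was 2.94, 0.29 and 2.08, and without the top well of CSN48-1 alone it was -0.10 in that set.

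cat encodes catalase, the peroxisomal enzyme that splits hydrogen peroxide. It gave 128.6 CPM in CSN24, 81.7 CPM in CSN48-1 and 63.2 CPM in CSN48-2, against 120.9 CPM in Ctrl. Strong wells numbered 6 (4.41%), 2 of 70 (2.86%) and 9 (5.33%), against 5 (3.03%) in Ctrl. In CSN48-2 the pooled level was lower than in Ctrl (log2 ratio -0.93) although the share of strong wells was not, and the strong Ctrl wells held a median of 1803 reads, against 372 in the CSN48-2 wells. The top well alone held 53.3% of the Ctrl reads. The log2 ratio of CSN24 was 0.09, and -1.09 without the top well of CSN24 alone. Without the top well of each group it was -0.0016 in CSN24 and -0.55 in CSN48-2, short of 1.5-fold. In CSN48-1 it was -0.57 with all wells and -1.39 without the top well of each group. cat entered the comparison in CSN48-1 only, since too few wells had a read in CSN24, CSN48-2 and Ctrl.

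gpx1a, a glutathione peroxidase that reduces hydrogen peroxide with glutathione, differed in sign between the 48-h sets. It stood at 65.9 CPM in CSN24, 8.34 CPM in CSN48-1 and 51.6 CPM in CSN48-2, against 26.9 CPM in Ctrl. These levels rested on 2, 2, 9 and 6 strong wells. Both strong wells of CSN24 were among those with genes of other cell types, and without such wells the level was 0.26 CPM in CSN24, against 31.3 CPM in Ctrl.

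prdx1 and hmox1a were nearly absent from ins-high wells. prdx1, a second cytosolic peroxiredoxin, was strong in 1 well each of CSN24, CSN48-1 and CSN48-2 and in 0 Ctrl wells, which allows a share of up to 1.82% (3 wells of the total, the limit used here for a count of 0). The strong wells of CSN24 and CSN48-2 were both among those with genes of other cell types. Of the 4762 prdx1 reads in CSN48-1, 4746 (99.7%) were in 1 well, and that well held 4662 ins counts, against a median of 54088.5 in its group. hmox1a, the stress-inducible haem oxygenase, had 2 reads in CSN24, 19 in CSN48-1 and 1 in CSN48-2, against 47 in Ctrl, of which 40 were in 1 well. No ins-high well of CSN24, CSN48-1 or CSN48-2 reached 10 hmox1a reads, which allows a share of up to 2.21% in CSN24, 4.29% in CSN48-1 and 1.78% in CSN48-2.

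**Figure D3:**
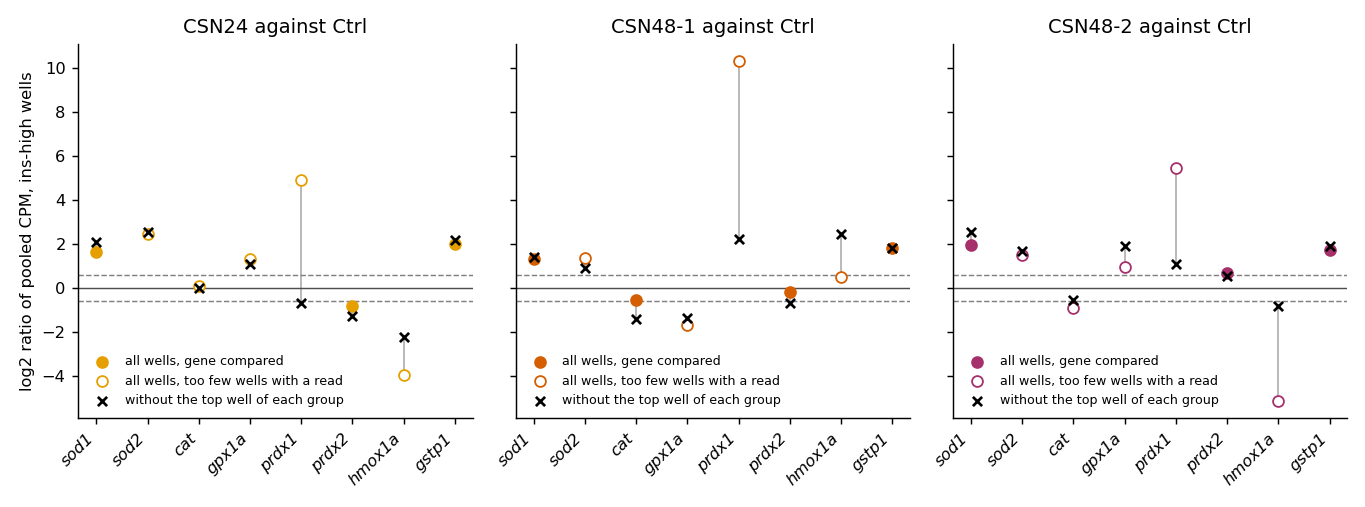
The y axis gives the log2 ratio of pooled CPM in ins-high wells to Ctrl for CSN24, CSN48-1 and CSN48-2. Filled circles are genes that entered the comparison, open circles are genes with too few wells with a read, crosses leave out the top well of each group, and dashed lines mark 1.5-fold. sod1 and gstp1 lie above 1.5-fold with all wells and without the top wells of both groups compared, whereas prdx1 in CSN48-1 stands at 10.30 with all wells and at 2.23 without 1 well per group.

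Counted against all genes, 3 of the 8 could be compared in CSN24, 4 in CSN48-1 and 3 in CSN48-2. A gene is counted as past the threshold at 1.5-fold. In CSN24, 2 were higher and 1 lower, where 29.8% of the 1125 compared genes were higher and 30.7% lower. In CSN48-1, 2 were higher and 0 lower, where 38.8% of 1447 genes were higher and 28% lower. In CSN48-2, 3 were higher and 0 lower, where 29.3% of 1227 genes were higher and 28.1% lower. By the share of strong wells the counts were the same. The background by that measure was 7.84% higher and 41.4% lower in CSN24, 34.4% higher and 19.4% lower in CSN48-1, and 29.9% higher and 13% lower in CSN48-2. The share of members that were higher lay above that of all genes in each group, on 3 or 4 genes each. However, sod1 passed the filter only through the groups with the channel. It had at least 1 read in 30.9%, 32.9% and 35.5% of their ins-high wells, against 18.8% in Ctrl. Most of those wells held 1 to 9 reads, so its entry rested on low values. On the third plate, that of the 48-h sets, the low sod1 values followed the layout (37.1% in shared rows and columns, 16.2% elsewhere). On the second plate, that of CSN24, they hardly did (27.1% and 25%). The counts are therefore no support for a rise of the 8 genes as a set. Over all compared genes the median log2 ratio was 0.09 in CSN24, 0.25 in CSN48-1 and 0.04 in CSN48-2. Without the filter on low genes, which 4 or 5 of the 8 did not pass, it was -0.23, 0.04 and 0.48 over all genes, and 1.47, 0.89 and 1.204 over the 8. These medians over the 8 took in genes whose ratios rested on few wells. In CSN24 gpx1a was at 1.29, and at -6.93 without the wells with genes of other cell types. In the same group prdx1 was at 4.90, and at -0.68 without the top well of each group. sod1, sod2 and gstp1 kept their sign in CSN24 under all 15 alternatives. The medians are thus no support for a rise of the 8 genes as a set either.

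Per kilobase of exon, which allows genes to be set against each other, gstp1 and prdx2 were the highest of the 8 in every group. In Ctrl the order was prdx2 at 397 CPM per kb, gstp1 at 118.4, sod1 at 38.9, cat at 26.7, sod2 at 25.5, gpx1a at 19.01, hmox1a at 0.25 and prdx1 at 0.035. In CSN24 gstp1 led at 468, followed by prdx2 at 224 and sod2 at 139.3, and in CSN48-1 gstp1 stood at 421 and prdx2 at 350. In CSN48-2 prdx2 led at 641 before gstp1 at 384. Neighbours such as sod2 and sod1 in CSN24, at 139.3 and 121.1, differed by less than the share held by the top well of either (46.7% and 28.4%), so their order is not resolved. The same holds for gstp1 and prdx2 in CSN48-1, whose top wells held 31.2% and 36.1%.

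At least 1 of the 8 genes was strong in 39 ins-high wells in CSN24 (28.7%, 21.3 to 37.1), in 26 of 70 in CSN48-1 (37.1%, 25.9 to 49.5) and in 75 in CSN48-2 (44.4%, 36.8 to 52.2), against 44 in Ctrl (26.7%, 20.1 to 34.1). CSN48-2 was the one group whose interval lay above that of Ctrl. Among all compared genes the share of strong wells was also more often higher than lower in CSN48-2 (29.9% against 13%). Wells with genes of other cell types, 36.7% of CSN48-2 and 14.5% of Ctrl ins-high wells, were included here. The part of either in this difference was not tested. Wells with a strong gene and wells with none had like depth, with medians of 474871 and 443355 counts in CSN48-2 and 671772 and 658491 counts in Ctrl. A well was mostly strong for 1 gene only, since 2 were strong in 6 wells of CSN24, 7 of CSN48-1 and 19 of CSN48-2, against 8 of Ctrl.

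prdx2 and gstp1 were strong together in 15 of 538 ins-high wells with at least 50000 counts, where the product of their shares gives 9.32 wells, and sod1 and prdx2 in 12, where it gives 6.00. The Spearman correlation of CPM across these wells was 0.097 for prdx2 with gstp1 and 0.18 for sod1 with prdx2, over wells that share plates and depth. Among 399 genes detected in at least 50% of these wells, the closest to prdx2 was dap1b (rho = 0.24) and the closest to gstp1 was TMCO1 (rho = 0.21), both under the value of 0.3 below which no likeness is read.

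The ins-low wells differed in kind between the groups. Wells under 50000 counts made up 1 of 14 in CSN24, 17 of 56 in CSN48-1, 17 of 34 in CSN48-2 and 0 of 6 in Ctrl. Among deeper ins-low wells, 24 in CSN48-1 and 6 in CSN48-2 held 10 reads of at least 3 iridophore genes, markers of the silvery pigment cell, and none in CSN24 or Ctrl did. The iridophore list, of which all 8 genes were detected in the ins-low wells of both 48-h sets, summed to 48006 CPM in CSN48-1 and 39498 CPM in CSN48-2 over ins-low wells, against 71.6 and 39.4 CPM over ins-high wells of the same sets. Of the other deep wells, 9 of 13 in CSN24, 5 of 15 in CSN48-1, 8 of 11 in CSN48-2 and 3 of 6 in Ctrl held over 1000 sst2 reads. The cut is on raw ins counts, so a shallow well could be ins-low with much of its counts on ins. In CSN48-2, for example, ins-low wells held 487 ins counts of 4922 and 934 of 10954. A comparison of ins-low with ins-high wells therefore also compared other cell types with beta cells, and shallow with deep wells. The part of these cells and of depth in the differences was not tested.

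sod2 and cat had no strong ins-low well. sod2 gave 7 reads in 56 ins-low wells of CSN48-1 and 6 in 34 of CSN48-2, or 0.40 and 0.83 CPM, against 79.3 and 85.9 CPM in the ins-high wells of these sets. cat gave 0.87 and 0.56 CPM, against 81.7 and 63.2 CPM. For sod2 in CSN48-2 this depended on the cut. Its log2 ratio of ins-low to ins-high wells was -6.69, and 0.49 with ins-high defined as at least 1% of counts on ins. The ratio of cat kept its sign under all 16 alternatives in both sets. Over all groups 0 of 110 ins-low wells were strong for either gene, against 15 (2.78%) and 22 (4.07%) of 540 ins-high wells for sod2 and cat. A count of 0 in 110 wells allows a share of up to 2.73%, above the lower bounds of 1.56% and 2.57% in ins-high wells, so this number of wells does not resolve a difference in either share.

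prdx1 and hmox1a, nearly absent from ins-high wells, were strong in 7 and 2 of 110 ins-low wells, against 3 and 1 of 540 ins-high wells over all groups. prdx1 was strong in 5 of 56 ins-low wells of CSN48-1 (8.93%, 2.96 to 19.6), against 1 of 70 ins-high wells (1.43%, 0.036 to 7.70), and in 1 of 34 ins-low wells of CSN48-2, against 1 ins-high well. Of these 6 ins-low wells, 5 held iridophore genes, 4 of the 24 in CSN48-1 and 1 of the 6 in CSN48-2. The hmox1a reads of CSN48-1 were 3021 in ins-low wells, against 19 in ins-high wells, with 3009 in 1 ins-low well. That well also held 411 reads of the macrophage receptor marco but 0 of csf1ra, another macrophage receptor, so no cell type is given to it. The second strong hmox1a well was an ins-low well of CSN24 at 298 CPM.

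prdx2 and gstp1 were strong in ins-low wells too. prdx2 was strong in 16 of 56 ins-low wells of CSN48-1 (28.6%, 17.3 to 42.2), against 11 of 70 ins-high wells (15.7%, 8.11 to 26.4), at 337 against 356 CPM. In CSN48-2 it was strong in 5 of 34 ins-low wells (14.7%, 4.95 to 31.1), against 38 ins-high wells (22.5%), at 123.7 against 652 CPM. All 5 were among the 17 CSN48-2 ins-low wells with at least 50000 counts. Of the 17 shallower wells of each set, 0 in CSN48-2 and 2 in CSN48-1 were strong for prdx2. The direction in CSN48-2 thus included wells too shallow to be strong often, and the part of depth was not tested. gstp1 gave 1134 CPM in ins-low wells of CSN48-1, against 376 CPM in ins-high wells, but 11917 of its 19657 ins-low reads (60.6%) were in 1 well that also held 11230 reads of prss59.1. The strong share of gstp1 was 12.5% of ins-low and 12.9% of ins-high wells in CSN48-1, and 11.8% and 13.6% in CSN48-2. All strong ins-low wells, 7 in CSN48-1 and 4 in CSN48-2, were among the 39 and 17 with at least 50000 counts. In each set 0 of the 17 shallower ins-low wells were strong for gstp1, so these near-equal shares are not at equal depth.

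sod1 was strong in 1 of 56 ins-low wells of CSN48-1 (1.79%, 0.045 to 9.55), against 7 of 70 ins-high wells (10%), and in 3 of 34 ins-low wells of CSN48-2 (8.82%, 1.86 to 23.7), against 16 ins-high wells (9.47%). In each set 0 of the 17 ins-low wells under 50000 counts were strong for sod1. The sod1 log2 ratio of ins-low to ins-high wells in CSN48-1 was -2.11, and -0.59 with ins-high defined as at least 1% of counts on ins. gpx1a was strong in 1 ins-low well of CSN48-1 with 961 reads and in none of CSN48-2. That CSN48-1 well also held 1011 reads of the macrophage receptor csf1ra but 0 of marco, so no cell type is given to it.

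**Figure D4:**
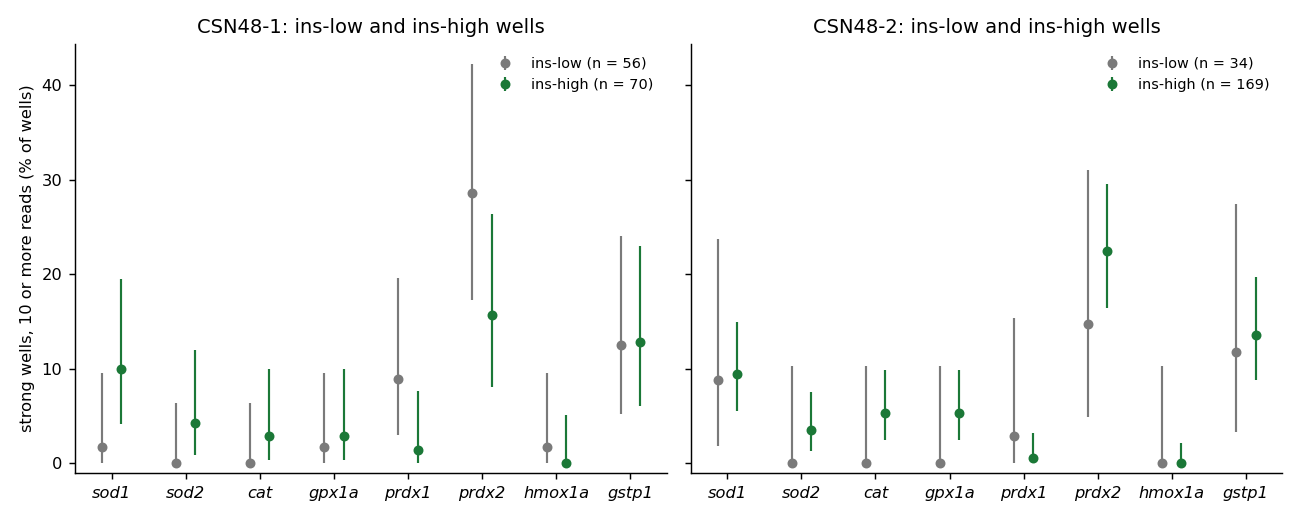
The y axis gives the share of wells with 10 or more reads of each gene among ins-low (left) and ins-high (right) wells of CSN48-1 (56 and 70 wells) and CSN48-2 (34 ins-low wells), with Clopper-Pearson 95% bars. The bars overlap for each gene, and prdx2 stands higher in ins-low wells in CSN48-1 (28.6% against 15.7%) and lower in CSN48-2 (14.7% against 22.5%). Of the 34 ins-low wells of CSN48-2, 17 held under 50000 counts and 0 of these were strong for prdx2.

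Of 4 genes compared between ins-low and ins-high wells of CSN48-1, gstp1 was higher and sod1 and cat were lower past 1.5-fold, where 33% of 1684 genes were higher and 47.9% lower. However, cat passed the filter only through the ins-high wells, where it was higher. It had at least 1 read in 28.6% of them, against 19.6% of ins-low wells, so its call is no support for a difference. Of 3 in CSN48-2, gstp1 was higher and prdx2 lower, where 25.9% of 1252 genes were higher and 52.5% lower. The gstp1 log2 ratio was 1.59 in CSN48-1 and 0.84 in CSN48-2, and 0.84 and -0.68 without the top well of each class, so the direction in CSN48-2 rested on 1 ins-low well with 3263 of 4435 reads. With the top ins-low well alone left out it was 0.33 in CSN48-1 and -0.97 in CSN48-2.

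Other genes of the antioxidant systems were taken from lists of 79 symbols, of which 70 were found. In ins-high wells 18 of them could be compared with Ctrl in each group. In CSN24, 10 were higher and 4 lower, in CSN48-1, 7 were higher and 6 lower, and in CSN48-2, 4 were higher and 4 lower, against the background shares given above. Counted by the share of strong wells, 1 was higher and 5 lower in CSN24, 4 and 7 in CSN48-1, and 5 and 3 in CSN48-2. By that measure 7.84% of all compared genes were higher and 41.4% lower in CSN24, 34.4% and 19.4% in CSN48-1, and 29.9% and 13% in CSN48-2. The balance of directions in the lists thus depended on the measure in CSN24 and CSN48-1. In CSN24 the balance of all genes moved the same way, from 29.8% higher and 30.7% lower by pooled CPM. The move in CSN24 was therefore not particular to these lists. The list of peroxiredoxins and thioredoxins gave 5 higher and 0 lower of 6 in CSN24, 3 and 0 of 5 in CSN48-1, and 3 and 1 of 5 in CSN48-2. Of all genes 29.8%, 38.8% and 29.3% were higher. By the share of strong wells the list gave 1 higher of 6, 2 higher and 2 lower of 5, and 2 higher of 5 in these groups, so its pooled counts were not matched by more strong wells in CSN24. It had the most compared genes of the lists and leaves out prdx1 and prdx2, of which prdx2 was lower in CSN24. Other lists went either way by pooled CPM. The list of the oxidative stress factor Nrf2 and its targets gave 0 higher and 1, 2 and 1 lower of 2. The list of other protective genes gave 2, 2 and 1 higher and 0 lower.

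The genes past 1.5-fold in the same direction in both 48-h sets were txn, prdx4 and mtbl, which were higher than in Ctrl, and fth1a and sqstm1, which were lower. The share of all genes that passed the same way in both sets was not calculated. Both sets also shared a plate and were set against the same Ctrl wells, so their agreement is no separate support. txn encodes thioredoxin, the reductant of the peroxiredoxins. It stood at 1062 CPM in CSN24, 976 CPM in CSN48-1 and 603 CPM in CSN48-2, against 305 CPM in Ctrl, and was strong in 23.5%, 40% and 35.5% of ins-high wells, against 23.6% in Ctrl (17.4 to 30.9). In CSN24 the level was thus higher at an equal share of strong wells. prdx4, the peroxiredoxin of the endoplasmic reticulum, gave 284, 547 and 339 CPM in CSN24, CSN48-1 and CSN48-2, against 180.4 CPM in Ctrl. Its top well held 61.7% of the CSN48-1 reads, and without the top well of each group the log2 ratio there was 0.42, and 0.39 in CSN24. It was strong in 8.09%, 10% and 17.2% of ins-high wells of these groups, against 10.3% in Ctrl. mtbl, a metallothionein gene, was strong in 11.03%, 12.9% and 20.1% of ins-high wells in CSN24, CSN48-1 and CSN48-2, against 9.09% in Ctrl, at 112.8, 72.1 and 129.5 CPM, against 47.3 CPM in Ctrl.

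sqstm1 encodes the autophagy receptor p62, a common target of the oxidative stress factor Nrf2. It was strong in 27 ins-high wells in CSN24 (19.9%, 13.5 to 27.6), 10 of 70 in CSN48-1 (14.3%, 7.07 to 24.7) and 36 in CSN48-2 (21.3%, 15.4 to 28.3), against 64 in Ctrl (38.8%, 31.3 to 46.7). Each of the 3 intervals lay below that of Ctrl, and its pooled level was 288, 195.1 and 132.8 CPM, against 348 CPM in Ctrl. sqstm1 was thus among the 41.4%, 19.4% and 13% of genes with a lower share of strong wells. Ctrl wells were also the deepest, and the part of depth in this share was not tested. fth1a, a ferritin heavy chain, stood at 130.6, 89.1 and 121.6 CPM, against 305 CPM in Ctrl, but its strong share was 9.56%, 7.14% and 8.28%, against 9.70% in Ctrl.

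txnipa, the thioredoxin-binding protein induced by glucose in mammalian beta cells, was singled out after its values were seen. It gave 472 CPM in CSN24, 14.7 CPM in CSN48-1 and 76.1 CPM in CSN48-2, against 83.7 CPM in Ctrl, with 11, 2, 3 and 7 strong wells in these groups.

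**Figure D5:**
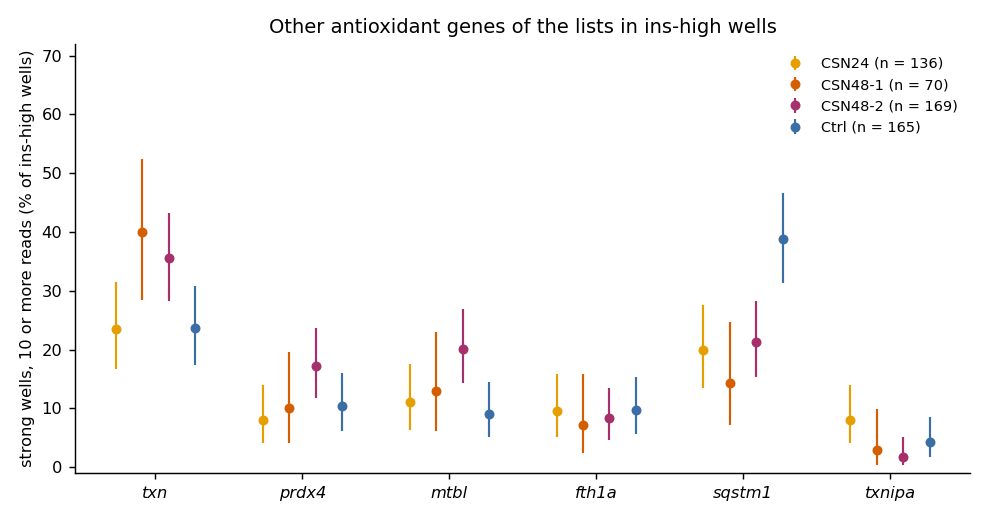
The y axis gives the share of ins-high wells with 10 or more reads of txn, prdx4, mtbl, fth1a, sqstm1 and txnipa in CSN24, CSN48-1, CSN48-2 and Ctrl, with Clopper-Pearson 95% bars. sqstm1 is the gene whose bars in the 3 groups with the channel (14.3% to 21.3%) all lie below that of Ctrl (38.8%).

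Between ins-low and ins-high wells, 6 of 18 list genes were higher and 8 lower in CSN48-1, and 4 of 16 were higher and 7 lower in CSN48-2, shares near those of all genes (33% and 47.9% in CSN48-1, 25.9% and 52.5% in CSN48-2). Those past the fold the same way in both sets were prdx6, which was higher in ins-low wells at 1051 CPM in CSN48-1 and 230.3 CPM in CSN48-2, against 49.6 and 86.9 CPM in ins-high wells, and prdx4 and mtbl, which were lower. A single well held 86.8% of the prdx6 reads in ins-low wells of CSN48-1. Here too the share of all genes that passed the same way in both sets was not calculated.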

How the data were processed

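The authors trimmed the reads, aligned them with gsnap to GRCz11 and assigned them to genes with featureCounts 2.0.1 (Ensembl 95 annotation). The deposited table holds raw counts, not normalized, of 32520 genes and 92 spike-ins. Multi-mapping and strand settings are not given in the sources used here.

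Wells were grouped by their labels, and 4 wells without a group entered no comparison. Wells were kept that had 200 or more detected genes and no more than 40% of counts on the 13 mitochondrial protein-coding genes, and over 1000 ins counts made a well ins-high. Counts were summed over wells and given as CPM of all counts on genes, and a level of 0 counts was set to 3 counts. Genes were compared where at least 25% of the wells of either group had 1 count, and were called at 1.5-fold. Wells held between 1486 and 1084018 counts. With 1 pool per group no test was made. Thinning drew each well to 50000 counts (seed 1). The calculation of the ratio was checked on simulated Poisson counts with 1 rate per gene over all wells. Reads here were far more uneven, so that check does not measure how often the calls are wrong. Python 3.11.15, numpy 2.4.6 and scipy 1.17.1 were used.

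The genes and lists were chosen with earlier results of these data known. The 8 genes were named throughout. The rule for the lists was to name up to 4 genes per comparison with the largest ratio in each direction, those past the fold in both 48-h sets first. All list genes past the fold the same way in both 48-h sets are given instead, which exceeds that limit against Ctrl. txnipa was named outside the rule. Not matched were txnrd1, txnrd2, ccs, hmox1b, gstm.1, gstm.3, mgst1.1, tktb and mt2. Alternatives covered the denominator, the weight of wells, the threshold, the filters and the definition of ins-high. Added after the data were seen were the share of strong wells and the omission of wells with genes of other cell types or of the top well of 1 group.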

Additional observations from a re-analysis of the deposited data

Results flagged for a closer look

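gpx1a went opposite ways in the 48-h sets, and the difference between the sets was not tested. Its log2 ratio in ins-high wells was -1.69 in CSN48-1 and 0.94 in CSN48-2, each against Ctrl, on 2, 9 and 6 strong wells. Between ins-low and ins-high wells it was 2.75 in CSN48-1, where 961 of 975 ins-low reads were in 1 well and the ratio was -2.28 without the top wells, and -6.54 in CSN48-2, on 4 ins-low reads.

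A well labelled NC on the first plate, which the labels put in no group, had 6 reads of prdx2 among 3617 counts on genes, or 1659 CPM (609 to 3611), above the 404 CPM of the Ctrl ins-high wells. It also held 314 ins counts, and spike-ins made up 54.4% of its reads.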

How the results depend on the processing

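No paired analysis was possible because each group is 1 pool and no comparison has a test. The number of the 8 genes past the fold was 3 in CSN24, 2 in CSN48-1 and 3 in CSN48-2, each against Ctrl, and 3 in CSN48-1 and 2 in CSN48-2 for ins-low against ins-high wells. It stayed within 1.5 times under 18, 17 and 19 of 20 alternatives against Ctrl and under 19 and 15 of 21 between the classes, but the genes and directions were the same under only 16, 12 and 11 of 20 and 12 and 9 of 21. With counts per spike-in CSN48-1 against Ctrl had 0 higher and 2 lower (cat and prdx2) in place of 2 higher (sod1 and gstp1), and without the top wells CSN48-2 had 3 lower between the classes in place of 1 higher and 1 lower. With 1 count required in 50% of wells it was 1 in CSN24, 1 in CSN48-1 and 1 between the classes of CSN48-1. With no filter on low genes it was 7, 5 and 8 against Ctrl and 6 and 6 between the classes. Without the top well of each group it was 4 in CSN48-1 against Ctrl. Between the classes of CSN48-2 it was 1 with the mean of the wells' own CPM, with thinned wells, at 2-fold and by the share of wells with 10 reads, and 4 with at least 1000 detected genes. The gstp1 log2 ratio of ins-low to ins-high wells changed sign with counts per spike-in (-0.43 in CSN48-1 and -3.05 in CSN48-2), and in CSN48-2 also with the mean of the wells' own CPM (-0.15) without the top wells (-0.68) and without the top ins-low well alone (-0.97). Counts per spike-in shifted the median of all genes to -0.93, -1.03 and -0.50 in CSN24, CSN48-1 and CSN48-2 against Ctrl, and every gene of a comparison by the same amount, which put the sod1 ratios at 0.62, 0.03 and 1.39. The causes were not tested. Thinning to 50000 counts lowered 59 of 64 shares of wells with 1 read. The number of wells limits the precision of the shares of strong wells, as their intervals show.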

Other observations

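Of the 4 wells that the labels put in no group, 3 are labelled RNA, held 45492 to 60608 counts and 7331 to 8765 genes, and gave 15, 22 and 9 reads of prdx2.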
